A study of Mus musculus with 9 samples.

Results

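The fragile X messenger ribonucleoprotein FMRP, its paralogs FXR1 and FXR2, its CYFIP partners and the stress granule proteins CAPRIN1, G3BP1 and G3BP2 were followed as messenger RNAs in cells that carried 1 of 3 forms of the RNA helicase MOV10. The members were chosen by name (Fmr1, Fxr1, Fxr2, Cyfip1, Cyfip2, Caprin1, G3bp1 and G3bp2), and all 8 were found among the 15977 genes of the deposited table. RNA was sequenced from N2A cells, a mouse neuroblastoma line whose own Mov10 had been knocked out, after transfection for 24 hours with 2 micrograms of DNA for MOV10. WT is the unaltered protein, S970A has an alanine at serine 970 that cannot take a phosphate, and S970D has an aspartate there as a stand-in for the phosphorylated residue. Each form had 3 libraries, and all 9 share the knockout background. The labels name neither the promoter and species of the transfected DNA nor whether the knockout line is 1 clone, and untransfected cells were not analysed here. Whether the replicates came from separate cultures is not said, and the spread that the p-values rest on may be technical.

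FMRP binds messenger RNAs, represses their translation and travels with them in granules, and its loss causes fragile X syndrome. FXR1 and FXR2 have the same RNA-binding architecture and can bind FMRP. CYFIP1 joins FMRP to the cap-binding factor eIF4E, and both CYFIP proteins are also subunits of the WAVE complex, which drives actin branching. CAPRIN1 binds G3BP1 and FMRP, and the G3BP proteins nucleate stress granules. MOV10 is an RNA helicase that binds FMRP and shares target messages with it.

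The promoters of Fmr1 and Fxr2 are shown because the mean differences of these paralogs between S970D and WT had opposite signs. Neither passed the main test given below. Both signs turned once a trend over transcript length and GC content was removed. The sequences are the 250 bases before the start site in RefSeq on GRCm38.p6, on the plus strand, at chrX:68678291-68678540 and chr11:69632721-69632970. Capitals mark the GC box, GGGCGG on either strand.

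Fmr1: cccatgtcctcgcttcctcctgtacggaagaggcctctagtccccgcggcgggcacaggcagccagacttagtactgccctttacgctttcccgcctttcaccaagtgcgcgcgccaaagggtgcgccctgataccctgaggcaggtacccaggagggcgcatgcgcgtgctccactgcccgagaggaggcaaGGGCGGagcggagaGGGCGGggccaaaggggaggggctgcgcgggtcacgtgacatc
Fxr2: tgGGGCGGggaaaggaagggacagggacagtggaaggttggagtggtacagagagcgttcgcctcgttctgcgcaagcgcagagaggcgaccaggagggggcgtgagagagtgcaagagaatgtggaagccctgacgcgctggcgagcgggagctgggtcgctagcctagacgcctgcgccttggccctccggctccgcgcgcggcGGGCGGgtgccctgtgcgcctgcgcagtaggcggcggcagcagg

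Each of these windows held 2 GC boxes, a motif found in 32.7% of the 32851 promoter windows of the same length. Of the 7 members with a window in that table, Cyfip2 was the 1 without a GC box, and Fxr1 had 7 matches. The E-box CACGTG, which reads the same on both strands, was found in Fmr1 alone of the 7, and in 6.02% of all windows. The Fmr1 window had 21 CpG sites and the Fxr2 window 26, against a median of 6 over all windows. A match is a description of these letters, and the libraries hold no measure of binding or methylation.

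The libraries were checked before the members were compared. Mov10 was at 14.90, 15.49 and 15.71 log2 CPM in WT replicates 1, 2 and 3, at 14.62, 15.24 and 15.42 in S970A, and at 14.57, 14.84 and 14.75 in S970D. CPM scales the reads of a gene to the library's total, and the table holds no read counts, so the depth is unknown. The S970D minus WT difference of Mov10 was -0.65 ± 0.29 (SE; limma adjusted p = 0.111, and 0.0323 with the replicate number as a block), and its part in the results below was not tested. Along the first principal component, which held 64% of the variance without Mov10, S970A replicate 1 scored 0.404, beside the S970D libraries (0.246 to 0.44). The other 2 S970A libraries scored -0.215 and -0.326, and the WT libraries lay between -0.455 and -0.0442. Of 15 neuroblastoma and sympathetic neuron markers 14 were measured, summing to 2217 to 2496 CPM in WT, 2237 to 3435 in S970A and 3167 to 3750 in S970D. Th and Dbh, the enzymes that define catecholamine cells, were under 1 CPM in every library. Of 5 fibroblast markers 2 were measured, summing to 14.7 to 19.7 CPM in WT, 11.7 to 17.8 in S970A and 11.3 to 14.5 in S970D. The 1 measured macrophage and leukocyte marker of 5 was at 0.498 to 0.746 CPM in WT, 0.469 to 0.829 in S970A and 1.24 to 2.28 in S970D. The 2 measured epithelial markers of 5 summed to 1.47 to 1.62 CPM in WT, 1.26 to 2.61 in S970A and 1.65 to 3.11 in S970D. S970D and WT did not overlap in these 3 sums or in the neuronal one. They overlapped for 2 of 5 endothelial markers (8.41 to 9.02 CPM in WT, 8.29 to 9.34 in S970A, 7.7 to 12.3 in S970D) and 2 of 6 Schwann and glial markers (7.21 to 10.1, 6.04 to 8.85 and 7.02 to 8.69). The part of these marker differences in the results below was not tested. In such bulk RNA, fewer cells of a kind and less RNA per cell cannot be told apart.

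Per kilobase of transcript, the level of Fxr1 was above that of Fxr2, and that of Fxr2 above that of Fmr1, in each of the 9 libraries. In WT the levels were 74.6 ± 6.02 CPM per kilobase for Fxr1, 34.2 ± 3.12 for Fxr2 and 11.5 ± 1.82 for Fmr1 (mean ± SD, n = 3). Caprin1 (68.6 ± 30.5 CPM per kilobase) had a WT level that did not differ from that of Fxr1 beyond its spread. G3bp1 (68 ± 1.25) had a lower WT mean than Fxr1, and their WT libraries overlapped (66.7 to 69.2 against 68.2 to 80.1). G3bp2 was at 46.5 ± 5.79 CPM per kilobase, and Cyfip1 (6.68 ± 0.829) and Cyfip2 (4.64 ± 0.612) were the lowest of the 8. In S970D, Caprin1 was at 25.8 ± 2.84 CPM per kilobase, next to G3bp2 at 26.2 ± 1.79 and below Fxr2 at 36.6 ± 2.92. These levels use 1 transcript per gene, the one with the longest coding sequence, and other isoforms would shift them.

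**Figure D1:**
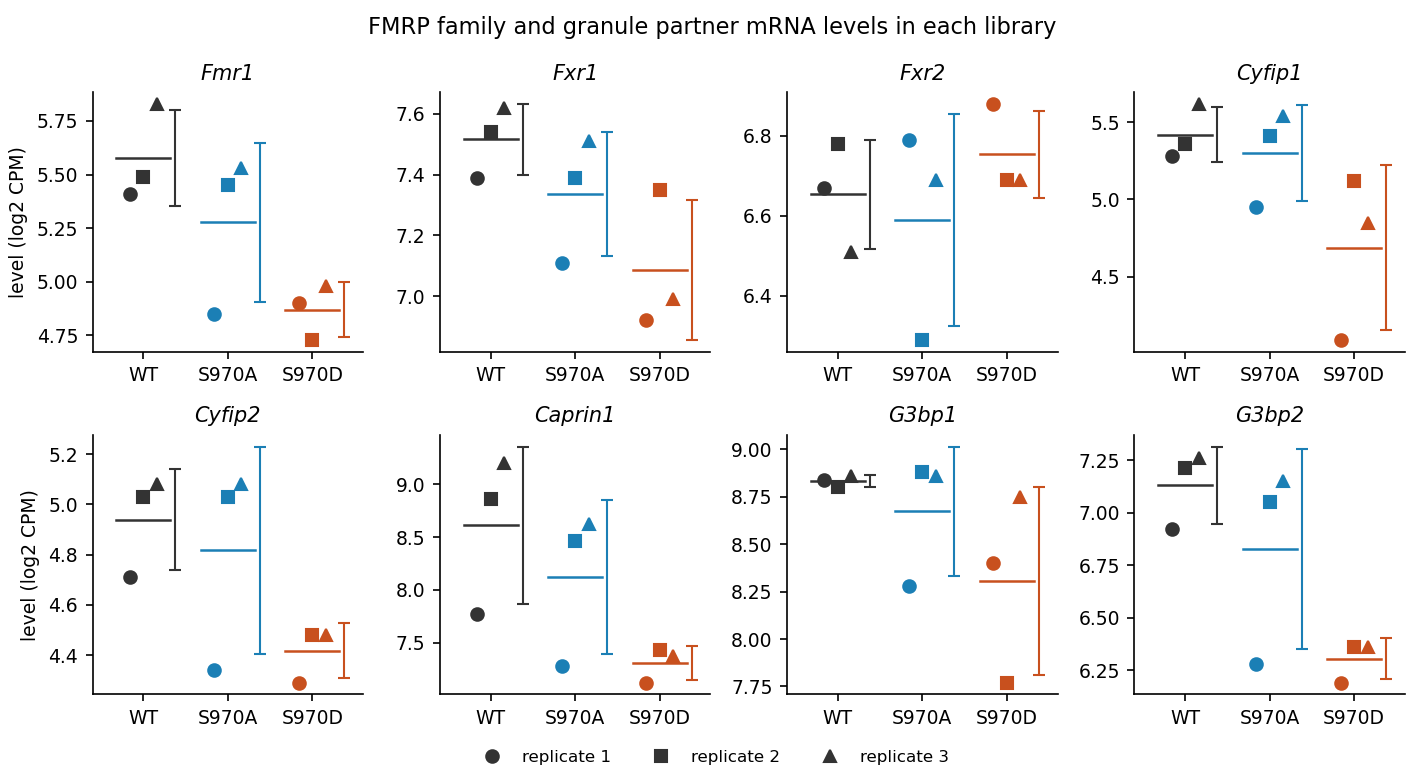
Level of each of the 8 messenger RNAs in log2 CPM in every library, by form of MOV10; points are libraries, with the replicate number as the shape, horizontal lines are group means, and bars are ± 1 SD (n = 3); each panel has its own vertical range. For 7 of the 8 genes each S970D library lies below each WT library, and S970A replicate 1 is the lowest S970A library; Fxr2 has neither pattern.

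S970D against WT asks what a mimic of phosphorylated serine 970 does to the levels of these messages. All members but Fxr2 had lower means with S970D, against 50.1% of all genes. The log2 differences of these members ran from -0.43 for Fxr1 to -1.30 for Caprin1. The groups did not overlap, with S970D lower, for 7 of the 8, against 29.3% of all genes. None of the 8 passed the test across all genes at a limma adjusted p under 0.05, where 1 gene of the table did (0.00626%). At a limma adjusted p under 0.1, 6 of the 8 were lower, against 20.3% of all genes. An unadjusted limma p under 0.05 was found for 6 of the 8 members, all lower. It was found for 7081 of the 15977 genes, in either direction. The median difference over the 8 was -0.62, and that over all genes was -0.002.

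The replicate numbers met the bound of 0.1 for pairs in this comparison (correlations of 0.31, 0.11 and 0.16 for S970D with WT). They did not meet it in the other comparisons, though the block fit holds all 9 libraries. No label says what the numbers mark, and whether they are true pairs was not tested. With the number as a block 6 of the 8 fell, against 23.3% of all genes called lower. No member was called higher, against 22.2% of all genes. The 6 were Fmr1, Fxr1, Cyfip1, Cyfip2, Caprin1 and G3bp2, with limma adjusted p-values from 0.00669 to 0.0293. G3bp1 (limma adjusted p = 0.0948) and Fxr2 (0.596) did not pass. Without the block, and with S970A replicate 1 left out of the shared estimate of spread, the same 6 members fell, against 24.9% of all genes called lower.

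The differences ran along a trend of the whole table over transcript length and GC content, and the members' transcripts are mostly long or AT-rich. The median S970D minus WT difference was 0.675 in the shortest of 20 bins of genes and -0.574 in the longest, and -0.773 in the bin with the lowest GC content and 0.770 in the highest. S970A replicate 1, set against S970A replicates 2 and 3, had medians of 0.855, -0.772, -0.846 and 0.816 in the same bins. Fmr1, at 36.91% GC, was lower in GC content than all but 1.09% of genes. With the trend over both properties removed from each library and the replicate block kept, G3bp2 was the 1 member that fell, against 12.2% of all genes called lower and 12.7% called higher. The median difference of the 8 was then -0.21. The same trend removal without the block called 0 members and 0 genes, with 5137 genes at an unadjusted limma p under 0.05. With length and GC content taken from each gene's longest transcript, and the block kept, Caprin1 fell beside G3bp2. That fit called 4362 of the 15977 genes, in either direction.

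**Figure D2:**
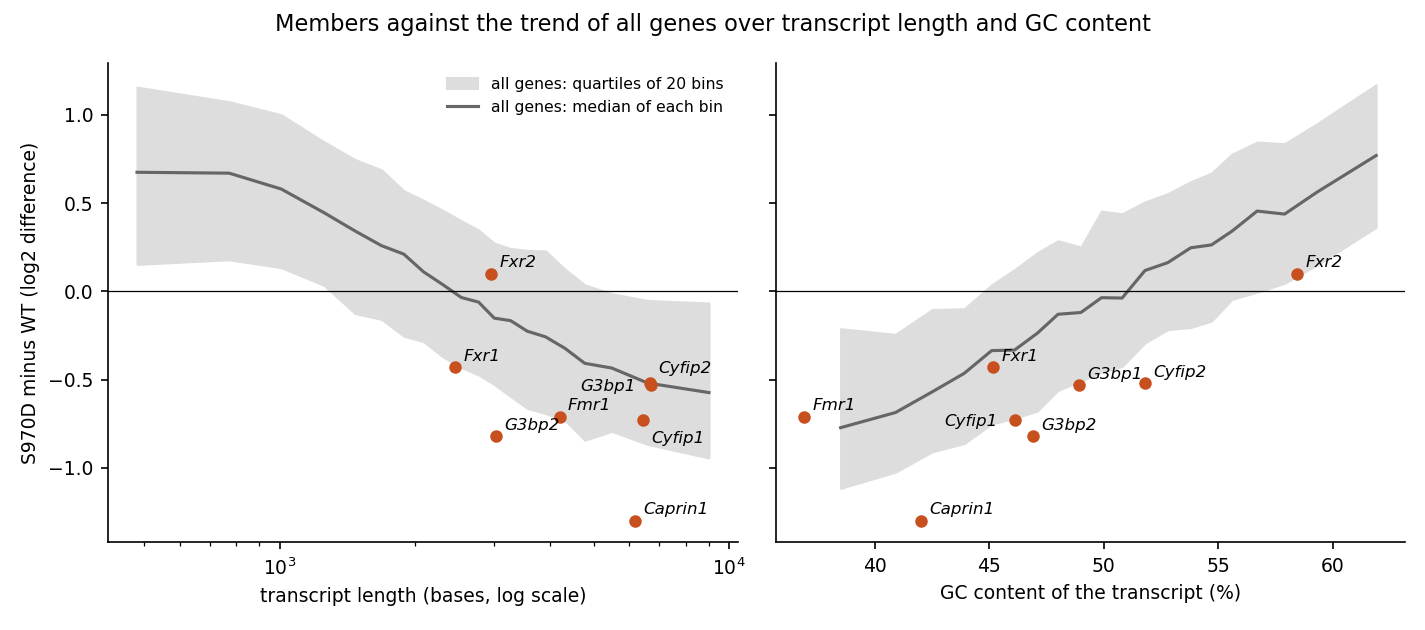
S970D minus WT difference in log2 CPM against transcript length (left, log scale) and transcript GC content (right); the line is the median and the band the quartiles of all annotated genes in 20 bins, and points are the 8 members. Fxr1 and Fmr1 lie near the median for their GC content, whereas Caprin1 and G3bp2 lie below the lower quartile in both panels.

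Among the FMRP family, Fmr1 (ENSMUSG00000000838.17, plus strand of chromosome X, 68678541 to 68717963 of GRCm38) encodes FMRP itself. Its levels were 5.41, 5.49 and 5.83 log2 CPM in WT, 4.85, 5.45 and 5.53 in S970A, and 4.90, 4.73 and 4.98 in S970D replicates 1, 2 and 3. The S970D libraries were all below the WT libraries, and S970A replicate 1 was among them. The difference from WT was -0.71 ± 0.21 (SE), a ratio of 0.613, with a limma adjusted p of 0.0756, and of 0.0112 with the replicate block. With the length and GC trend removed the difference turned to 0.20 ± 0.15 (limma adjusted p = 0.352, and 0.142 with the block). With length and GC content taken from each gene's longest transcript it was 0.01 (limma adjusted p = 0.917 with the block).

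Fxr1 (ENSMUSG00000027680.15, plus strand of chromosome 3, 34019943 to 34070322) encodes a paralog that is abundant in muscle. It was at 7.39, 7.54 and 7.62 log2 CPM in WT, 7.11, 7.39 and 7.51 in S970A, and 6.92, 7.35 and 6.99 in S970D. S970D replicate 2, at 7.35, came within 0.04 of the lowest WT library. The difference was -0.43 ± 0.17 (SE; limma adjusted p = 0.0881, and 0.0293 with the replicate block). It was -0.13 ± 0.12 with the trend removed. Of the 31-base words of its transcript, 1.07% also occur in another gene, the processed pseudogene Gm17795.

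Fxr2 (ENSMUSG00000018765.5, plus strand of chromosome 11, 69632990 to 69653297), the third paralog, has the most GC-rich transcript of the 8, at 58.45%. It was at 6.67, 6.78 and 6.51 log2 CPM in WT, 6.79, 6.29 and 6.69 in S970A, and 6.88, 6.69 and 6.69 in S970D. The 3 groups overlapped. S970D minus WT came to 0.10 ± 0.16 (SE; limma adjusted p = 0.637), and it turned to -0.26 ± 0.12 with the trend removed (limma adjusted p = 0.16, and 0.136 with the block). Fxr2 was also the 1 member without a cluster colour in the authors' deposited table, as were 59.8% of all genes. The other 7 were turquoise, a colour that 18.5% of genes carry. How the colours were assigned is not stated in what was used here.

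The CYFIP genes encode large paralogous proteins. Cyfip1 (ENSMUSG00000030447.15, plus strand of chromosome 7, 55841745 to 55932602) was at 5.28, 5.36 and 5.62 log2 CPM in WT, 4.95, 5.41 and 5.54 in S970A, and 4.09, 5.12 and 4.85 in S970D. S970D replicate 1 was the lowest library by 0.76. The S970D minus WT difference was -0.73 ± 0.27 (SE; limma adjusted p = 0.0806, and 0.0131 with the replicate block), and -0.18 ± 0.20 with the trend removed. Without S970D replicate 1 the difference on the deposited values was -0.43. Cyfip2 (ENSMUSG00000020340.16, minus strand of chromosome 11, 46193850 to 46312859) was at 4.71, 5.03 and 5.08 log2 CPM in WT, 4.34, 5.03 and 5.08 in S970A, and 4.29, 4.48 and 4.48 in S970D. S970A replicates 2 and 3 matched the WT libraries of the same number to within 0.01, while S970A replicate 1 stood with S970D. The S970D minus WT difference was -0.52 ± 0.21 (limma adjusted p = 0.0961, and 0.0197 with the block), and -0.24 ± 0.11 with the trend removed.

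Of the granule proteins, Caprin1 (ENSMUSG00000027184.14, minus strand of chromosome 2, 103762941 to 103797649), the partner of G3BP1 in condensation, had the widest range of the 8. It was at 7.77, 8.86 and 9.20 log2 CPM in WT, 7.28, 8.46 and 8.62 in S970A, and 7.12, 7.43 and 7.37 in S970D. The libraries numbered 1 were the lowest in every group, and WT replicate 1 was 1.09 below the next WT library. The S970D minus WT difference was -1.30 ± 0.42 (SE), a ratio of 0.406, with a limma adjusted p of 0.0756, and of 0.00669 with the replicate block. Only 3.72% of all genes had a more negative difference. The Caprin1 difference was -0.55 ± 0.23 with the trend removed (limma adjusted p = 0.142, and 0.0546 with the block). With length and GC content taken from each gene's longest transcript it was -0.61 (limma adjusted p = 0.0414 with the block).

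G3bp1 (ENSMUSG00000018583.5, plus strand of chromosome 11, 55469685 to 55504838) encodes the main nucleator of stress granules. It was at 8.84, 8.80 and 8.86 log2 CPM in WT, 8.28, 8.88 and 8.86 in S970A, and 8.40, 7.77 and 8.75 in S970D. The WT libraries lay within 0.05 of each other and the S970D libraries spread over 0.98, with replicate 2 lowest. The difference was -0.53 ± 0.26 (SE; limma adjusted p = 0.14, and 0.0948 with the replicate block), and -0.10 ± 0.22 with the trend removed. Without S970D replicate 2 the difference on the deposited values was -0.26. Its level is uncertain, since 7.13% of the 31-base words of its transcript occur in other genes, most of them in the processed pseudogene Gm5913.

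G3bp2 (ENSMUSG00000029405.16, minus strand of chromosome 5, 92052146 to 92083719), the paralog of G3bp1, had the smallest unadjusted limma p of the 8 in S970D against WT (0.00558). Its levels were 6.92, 7.21 and 7.26 log2 CPM in WT, 6.28, 7.05 and 7.15 in S970A, and 6.19, 6.36 and 6.36 in S970D. The S970D libraries lay within 0.18 of each other and below each WT library, and S970A replicate 1 lay among them. The S970D minus WT difference was -0.82 ± 0.23 (SE), a ratio of 0.565 (limma adjusted p = 0.0756, and 0.00717 with the replicate block). With the trend removed it was -0.53 ± 0.14 (limma adjusted p = 0.115, and 0.0165 with the block). With length and GC content taken from the longest transcript in place of the one with the longest coding sequence, the difference was -0.31 (limma adjusted p = 0.0455 with the block).

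**Figure D3:**
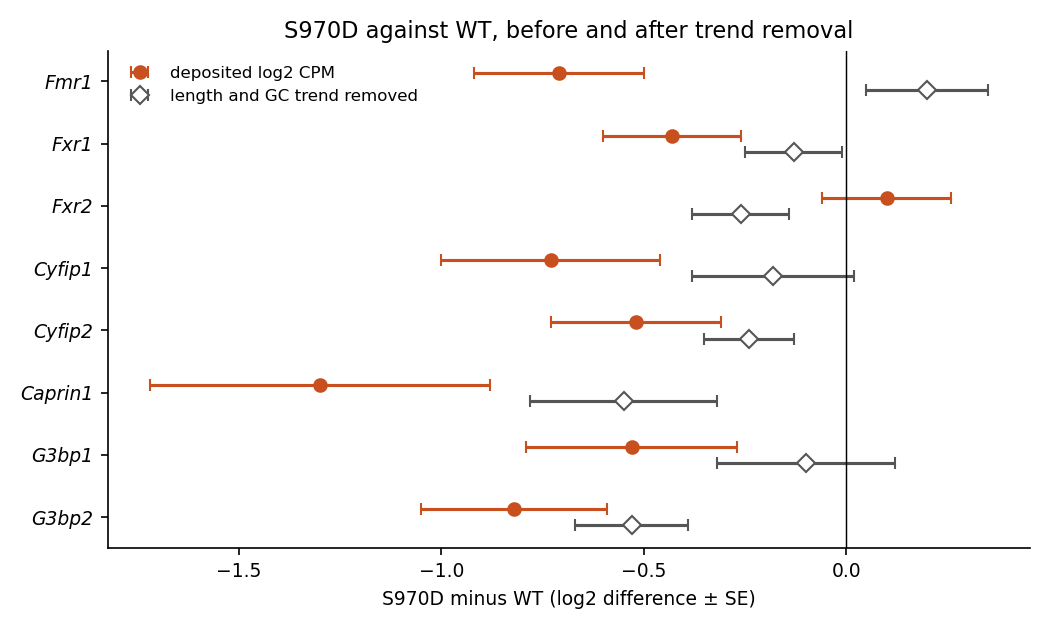
S970D minus WT difference in log2 CPM for each of the 8 members, ± SE of the limma fit of all 9 libraries; filled circles use the deposited values and open diamonds the values with the trend over transcript length and GC content removed. The Fmr1 estimate moves from -0.71 to 0.20 and that of G3bp2 from -0.82 to -0.53.

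S970A against WT asks whether the messages differ when serine 970 cannot be phosphorylated. Each of the 8 had a difference below 0, from -0.06 ± 0.16 (SE) for Fxr2 to -0.49 ± 0.42 for Caprin1, against 50.7% of all genes below 0. No member and no gene passed at a limma adjusted p under 0.05 (0% of the table). No member had an unadjusted limma p under 0.05, against 280 of the 15977 genes. The limma adjusted p-values of the members ran from 0.776 to 0.879, and in none of the 8 did the groups separate with S970A lower, against 3.32% of all genes. Without S970A replicate 1 the median over the 8 moved from -0.17 to -0.05, and Cyfip1 (0.06), Cyfip2 (0.11) and G3bp1 (0.04) turned to positive differences. The Caprin1 difference moved to -0.07 without that library and to -0.91 without WT replicate 1. Over the libraries left out in turn the difference ran from -0.43 to -0.08 for Fmr1, from -0.27 to -0.07 for Fxr1 and from -0.46 to -0.03 for G3bp2, each nearest 0 without S970A replicate 1. With the trend removed Fmr1, Cyfip1 and G3bp1 turned to 0.07, 0.10 and 0.01.

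S970A replicate 1 parted from its group in the same genes, and also over the whole table along transcript length and GC content. Relative to the mean of S970A replicates 2 and 3, it was lower by 1.26 on the log2 scale for Caprin1, 0.82 for G3bp2, 0.71 for Cyfip2, 0.65 for Fmr1, 0.59 for G3bp1, 0.52 for Cyfip1 and 0.34 for Fxr1. For Fxr2 it was higher by 0.30. Over all genes, the median of the same difference ran from 0.855 in the shortest of 20 bins to -0.772 in the longest. From the lowest to the highest GC bin it ran from -0.846 to 0.816. The part of this library in the results of S970A was not tested beyond leaving it out.

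S970D against S970A compares the phosphomimic with the unphosphorylatable form. Differences ran from -0.81 ± 0.42 (SE) for Caprin1 to 0.16 ± 0.16 for Fxr2, with 7 of the 8 below 0, against 50.3% of all genes. No member and no gene passed (0% of the table; limma adjusted p-values of members 0.411 to 0.536). Cyfip1 and G3bp2 had an unadjusted limma p under 0.05, as did 1110 of the 15977 genes in either direction. Groups that did not overlap, with S970D lower, were found for none of the 8, against 4.11% of all genes. With S970A replicate 1 left out, Fmr1 (-0.62 ± 0.16), Cyfip1 (-0.79 ± 0.27), Cyfip2 (-0.63 ± 0.15), Caprin1 (-1.23 ± 0.35) and G3bp2 (-0.80 ± 0.14) fell, with limma adjusted p-values from 0.0145 to 0.046. These are 5 of the 8, against 20.8% of all genes called lower, and S970A then had 2 libraries. This comparison shares its S970D libraries with S970D against WT.

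The 3 forms were also tested together, by limma's F test. No member and no gene passed (0% of the table), with limma adjusted p-values of the members from 0.202 to 0.728. Fmr1, Caprin1 and G3bp2 had an unadjusted F test p under 0.05, as did 3953 of the 15977 genes.

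Paralogs were also compared within each library, where the scaling of the library cancels. Fxr2 minus Fmr1, in log2 CPM, was 1.26, 1.29 and 0.68 in WT, 1.94, 0.84 and 1.16 in S970A, and 1.99, 1.96 and 1.70 in S970D. The S970D values were all above the WT values, and S970A replicate 1 was again among them. The balance was higher in S970D than in WT by 0.81 ± 0.22 (SE), with an exact two-sided permutation p of 0.1, the smallest that 3 against 3 allows, and an adjusted p of 0.764 over the 12 comparisons of this kind. With the length and GC trend removed that difference turned to -0.46, also with an unadjusted exact permutation p of 0.1. The balances Fxr1 minus Fmr1 (0.28 ± 0.22), Cyfip2 minus Cyfip1 (0.21 ± 0.26) and G3bp2 minus G3bp1 (-0.30 ± 0.32) differed between S970D and WT with exact permutation p-values from 0.4 to 0.7, and the CYFIP and G3BP differences were smaller than their SE. Without S970D replicate 2 these 3 differences were 0.07, 0.39 and -0.59. The CYFIP balance turned to -0.03 without S970D replicate 1, and the G3BP balance moved to -0.11 without S970D replicate 3 and to -0.20 without S970D replicate 1. In Cyfip2 minus Cyfip1, S970D replicate 1 was the 1 library above 0, at 0.20.

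**Figure D4:**
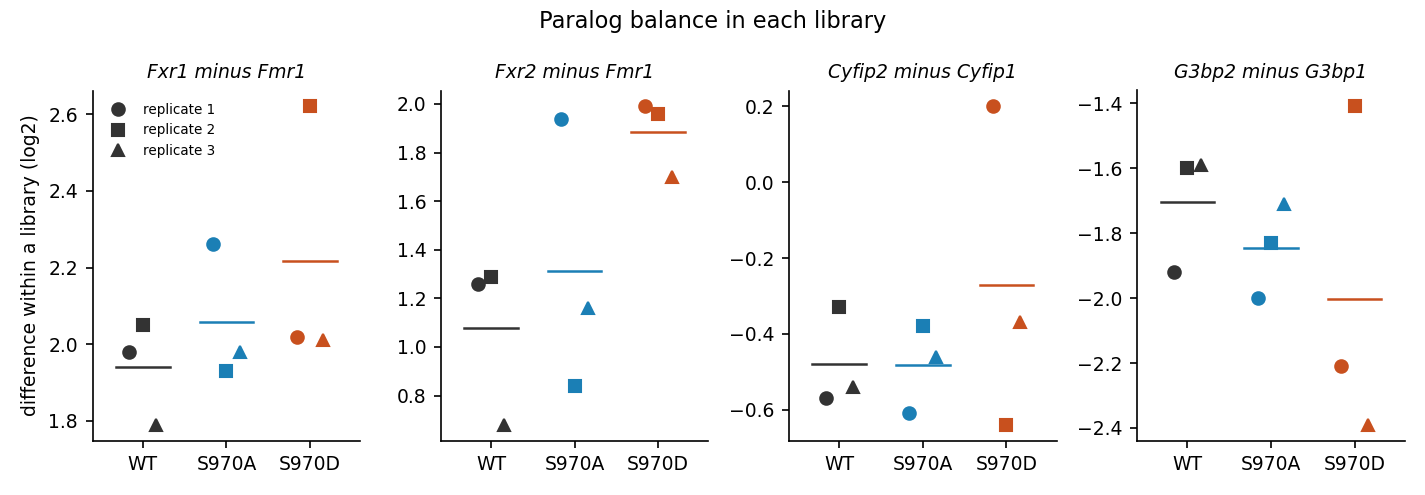
Difference in log2 CPM between 2 paralogs within each library, by form of MOV10; points are libraries, with the replicate number as the shape, and lines are group means. The S970D libraries (1.70 to 1.99) lie above the WT libraries (0.68 to 1.29) for Fxr2 minus Fmr1, whereas the groups overlap in the other panels.

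The pattern of Fmr1 over the 9 libraries was compared with that of 10894 named genes by the root mean square difference of mean-centred log2 CPM. The nearest were Eif2ak2, which encodes the double-stranded RNA kinase PKR (0.043), the deubiquitinase gene Usp12 (0.063) and the sterol carrier gene Stard4 (0.066). Their transcripts are 4313, 4327 and 5097 bases long, beside 4199 for Fmr1. The trend over length and GC content was left in, and its part in this likeness was not tested. Eif2ak2 was at 4.83, 4.91 and 5.16 log2 CPM in WT, 4.23, 4.88 and 4.99 in S970A, and 4.26, 4.17 and 4.46 in S970D. Among the members, G3bp2 (0.131) and Cyfip2 (0.143) were nearest to Fmr1, at ranks 417 and 566, and Fxr2 (0.467) was farthest, at rank 6417.

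The messages of other stress granule proteins were lower with S970D more often than higher. Of 36 listed genes 35 were measured, and 19 of them fell and 1 rose with the replicate block, against 23.3% and 22.2% of all genes, and 11 fell and 2 rose once the length and GC trend was also removed, against 12.2% and 12.7%. Without the block 0 of them passed. Their median S970D minus WT difference was -0.52, and -0.20 with the trend removed. Elavl1, which encodes the AU-rich element binding protein HuR, was at 7.41, 7.51 and 7.61 log2 CPM in WT and 6.43, 6.27 and 6.78 in S970D, a difference of -1.02 ± 0.21 (SE). Snd1, the gene of a Tudor-domain nuclease, was at 7.86, 8.84 and 8.83 in WT and 6.98, 7.08 and 6.89 in S970D, a difference of -1.53 ± 0.41. The RNA helicase gene Ddx3x, at 8.07, 8.54 and 8.78 in WT and 6.85, 7.05 and 7.32 in S970D, differed by -1.39 ± 0.38. In all 3 the groups did not overlap, with S970D lower, as for 29.3% of all genes. The genes named from this and the other lists had the largest absolute test statistics in this comparison. Their separation and calls therefore follow largely from that choice. None of these genes passed without the block (limma adjusted p = 0.0756 for each), and all 3 fell with the block and the trend removed (limma adjusted p from 0.0147 to 0.0235).

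The messages of the WAVE complex, which holds the CYFIP proteins, went both ways. Of 10 genes including Rac1, 5 fell and 1 rose with the replicate block, against 23.3% and 22.2% of all genes, and 0 passed without it. The median was -0.49. With the trend also removed 0 fell and 2 rose, against 12.2% and 12.7% of all genes, and the median was -0.01. Abi1, which encodes a scaffold subunit, was lower by a log2 difference of -0.99 ± 0.30 (SE), and Wasf3, the gene of an actin nucleation promoting subunit, by -0.53 ± 0.16. Both lost their call with the trend removed (limma adjusted p = 0.0626 and 0.171 with the block). Brk1, which encodes the smallest subunit, was at 6.37, 5.81 and 5.68 log2 CPM in WT and 6.99, 6.58 and 6.80 in S970D, higher by 0.83 ± 0.28, and rose with the block, both with the trend left in (limma adjusted p = 0.00705) and with it removed (0.0179).

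The messages of proteins that bind or modify FMRP had a median of -0.42 over 19 genes. With the replicate block 7 fell and 2 rose, against 23.3% and 22.2% of all genes, while 0 passed without it. With the trend removed the median turned to 0.15, with 5 lower and 3 higher by the block fit, against 12.2% and 12.7% of all genes. Csnk2a2, a catalytic subunit of casein kinase 2, which phosphorylates FMRP, differed by -0.68 ± 0.18 (SE), the RNA-binding protein gene Hnrnpa2b1 by -0.88 ± 0.26 and Purb, which encodes a single-strand binding protein, by -0.72 ± 0.23. Of these, Hnrnpa2b1 fell with the block after trend removal (limma adjusted p = 0.0193), and Csnk2a2 (0.0733) and Purb (0.782) did not pass.

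Messages known to be bound by FMRP had a median S970D minus WT difference of -0.001, beside -0.002 over all genes. Of 24 listed 21 were measured, and 6 fell and 2 rose with the replicate block, near the 23.3% of all genes called lower and fewer than the 22.2% called higher. Without the block 0 passed. With the trend also removed 2 fell and 2 rose, against 12.2% and 12.7% of all genes, and the median was -0.07. Tsc2, which encodes the growth regulator tuberin, was at 6.26, 5.64 and 5.49 log2 CPM in WT and 7.10, 6.75 and 6.49 in S970D, higher by 0.99 ± 0.29 (SE). Huwe1, the gene of a very large ubiquitin ligase, was lower by a log2 difference of -1.20 ± 0.43, and Sod1, superoxide dismutase, was higher by 0.85 ± 0.30. With the block and the trend removed Tsc2 rose (limma adjusted p = 0.0142), Huwe1 fell (0.0405) and Sod1 did not pass (0.295). In S970A against WT no gene of the 4 lists passed.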

How the data were processed

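A stranded mRNA kit made 9 libraries from total RNA, and 1 lane held them all, per the labels' protocols. GRCm38, R 3.6.3, Salmon 1.1.0 and bcl2fastq 2.20 appear, without order or role, per the submitters' processing notes. The authors deposited log2 CPM values for 15977 genes, with 1 column per library. The prior count, scaling, gene filter and strand setting are not stated in the sources. On the CPM scale they add up to 955214 to 1069215 per library. At most 10.3% of low values were whole multiples of a common step within a tolerance of 0.03, where that tolerance alone gives 6%, so no reads were recovered and the precision that depth gives is unknown. Near the lowest value of -4.09 differences are understated. Some genes also carry, in columns the authors deposited, a colour for a cluster and a position in an ordering, whose making is not stated.

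Each library has its group and replicate number from the labels. limma 3.58.1 in R 4.3.3 was fitted to the log2 values of every gene in the 9 libraries, with group alone in the model (6 residual degrees of freedom, intensity trend). Two-sided p-values were adjusted by Benjamini-Hochberg over the whole table, and the threshold for a call was 0.05. Members, gene lists and tests were chosen with earlier results of these data known. Beside the members, the text names Mov10, the 3 genes of each list with the largest absolute moderated test statistic in S970D against WT, and the 3 genes most like Fmr1 in pattern among those averaging 1 log2 CPM or more and not predicted models; Dbh, Th and genes with shared sequence stand as checks.

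After group means were subtracted, libraries with the same number correlated at 0.31, 0.11 and 0.16 for S970D with WT, so the numbers were taken as pairs there. The bound of 0.1 was not met for S970A with WT (lowest 0.067) or S970D with S970A (0.0043). No label says what the numbers mark, and the block fit holds all 9 libraries.

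Transcript lengths, GC content and coordinates came from GENCODE vM21 (GRCm38), matched for 15959 genes (99.9%). The trend was removed per library with splines of 5 degrees of freedom over log2 length and GC content. Promoters came from RefSeq (GRCm38.p6), with 7 members matched. The fits were tested on simulated data. Other alternatives were log2 of CPM plus 1, a mean log2 CPM of at least 1, quantile normalization, median centring, the 6 libraries of a comparison and each library left out. Those added after the data were seen were the trend of the longest transcript, and the trend removed without S970A replicate 1.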

Additional observations from a re-analysis of the deposited data

How the results depend on the processing

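Of the 8 members, 0 passed in S970D against WT in the fit of all 9 libraries (1 gene of the table), 6 with the replicate block (7276 genes), 4 with only the 6 libraries compared (6727), 1 with the block and the length and GC trend removed (3970), 2 with the trend of the longest transcript and the block (4362), and 1 with the trend removed and S970A replicate 1 left out (4164). Leaving out each library in turn gave 0 to 6, with 6 reached without S970A replicate 1 (7615 genes) and 0 without any other. In S970D against S970A the count was 0, with 0 to 5 over the libraries left out (5 without S970A replicate 1, 6307 genes) and 2 with the trend also removed (2659 genes). For the F test it was 0, then 4 with the block (4716 genes), 1 with the block and the trend removed (1250), 0 with the block and the trend of the longest transcript removed (1332), 0 to 4 over the libraries left out (4 without S970A replicate 1, 6558 genes) and 1 with the trend removed and that library left out (2928). In S970A against WT it was 0 throughout. The block changed no other call among the 8. The cause of these changes was not tested, though leaving out S970A replicate 1 narrows the shared spread.

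Directions that turned in S970D against WT were Fmr1 (0.20 with the trend removed, 0.01 with that of the longest transcript), Fxr1 (0.12 with the longest transcript) and Fxr2 (-0.26 and -0.32). In S970D against S970A they were Fmr1 (0.13, 0.02 with the longest transcript, 0.27 with the trend removed and S970A replicate 1 left out), Fxr1 (0.06) and Fxr2 (-0.05, -0.09 and -0.06). In S970A against WT, Fmr1 (0.07), Cyfip1 (0.10) and G3bp1 (0.01) turned with the trend removed. With the trend of the longest transcript removed, Cyfip1 (0.08) and Fxr1 (0.06) turned. With the trend removed and S970A replicate 1 left out, Cyfip1 (0.03), Cyfip2 (0.07) and G3bp1 (0.00) turned. Over the libraries left out, the S970A minus WT difference ran from -0.16 to 0.09 for Fxr2, -0.24 to 0.06 for Cyfip1, -0.26 to 0.11 for Cyfip2 and -0.26 to 0.04 for G3bp1. With the trend removed, the balance Fxr2 minus Fmr1 differed by -0.46 between S970D and WT, -0.28 between S970A and WT and -0.18 between S970D and S970A, and Fxr1 minus Fmr1 by -0.33, -0.10 and -0.23. Over the libraries left out, the S970D minus WT difference ran from 0.07 to 0.38 for Fxr1 minus Fmr1, 0.61 to 0.91 for Fxr2 minus Fmr1, -0.03 to 0.39 for Cyfip2 minus Cyfip1 and -0.59 to -0.11 for G3bp2 minus G3bp1. With median centring the S970D minus WT median over the table became 0.111, and that of the 8 members -0.50. The depth is unknown, so no counting error can be given.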
